A study of Danio rerio with 2 samples.

Results

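The pro-apoptotic Bcl2 family genes were 6 zebrafish genes of the mitochondrial death pathway, namely baxa, baxb, bida, badb, bik and bbc3. They were found by their symbols in the authors' gene table, where they occupied 7 of 34728 loci because the name baxa stands at a pair of neighbouring loci. The table compares whole zebrafish embryos in 2 libraries of polyadenylated RNA, 1 from supt16h mutants (supt16h-/-) and 1 from their wild-type siblings. All embryos were grown at 28 °C to 32 hours post fertilisation, and the number pooled per library is not given in the sources used here. The product of supt16h is part of FACT, a histone chaperone that takes apart and rebuilds nucleosomes during transcription and replication, and the series was made to map the mutation by linkage.

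Bcl2 family proteins decide whether the outer membrane of the mitochondrion stays closed. Bax proteins form pores in it that release cytochrome c, anti-apoptotic members such as Bcl-xL (bcl2l1) and Mcl1 hold Bax in check, and BH3-only proteins either occupy the anti-apoptotic members or activate Bax directly. The released cytochrome c assembles with Apaf1 and activates caspases. In zebrafish embryos, as in mammals, p53 is known to act on this pathway in part by raising transcription of the BH3-only gene bbc3, also called Puma.

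With 1 library per genotype there were no replicates, no test between genotypes was possible, and every difference describes these libraries alone. Levels are FPKM, fragments scaled to transcript length and to the size of the library, a unit that allows levels of different genes to be set side by side. A log2 difference is the log2 of mutant FPKM + 1 less the log2 of sibling FPKM + 1, which damps the change of weakly expressed genes, and a locus with a mean of at least 1 FPKM is called measured. Every count of loci past a fold limit uses this scale, with 1 FPKM added, while folds given for single genes are ratios of the deposited FPKM and can be larger. The FPKM values summed to 1095954 in the mutant library and 1029581 in the sibling library. Read depths are not given in the sources used here. Sibling to mutant ratios were grouped in steps of 0.05 in log2 at 4528 loci above 0 and below 1 FPKM in both libraries. The most frequent ratio was 1.53, and its step held 7.58% of these loci. Such a ratio can arise when 1 fragment weighs less in a deeper mutant library. The next most frequent ratio was 0.767, which the same weights can also give where a locus has more fragments in the mutant library. Depth itself was not tested. Expression of supt16h itself was 2.98 FPKM in the mutant library and 44.4 FPKM in the sibling library, so the labelled mutant library held less supt16h RNA. The 12 loci of muscle, red cell, neuron, epidermis, heart and lens markers were all detected, from 2.22 to 12119 FPKM in the mutant library and from 4.70 to 8587 FPKM in the sibling library. In whole embryos, a change in the number of cells of a type and a change in RNA per cell cannot be told apart.

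The 1 member called higher in the authors' deposited table was bbc3, which was 11.6 times as high in the mutant library. Not called there, baxa and badb stood close to 2-fold higher, bik 3.41-fold, baxb 1.68-fold and bida 1.05-fold higher. All 7 loci lay above 0 on the log2 scale, though bida fell just below it when each library was divided by its FPKM sum, and 50.1% of 20638 measured loci lay above 0. With 1 FPKM added, at least 2-fold higher were 3 of the 7 loci (bbc3, bik and the second baxa locus), against a background of 6.75% of measured loci, and 0 were at least 2-fold lower, against 8.36%. On the same scale at least 1.5-fold higher were 5 of the 7, against 16.1% of measured loci, and baxb fell short at 1.47-fold with 1 FPKM added. With a limit of 5 FPKM on the mean, which bbc3, bik, baxb and the second baxa locus do not reach, 0 members were at least 2-fold higher. The median difference was 0.95 over the 7 loci and 0.0012 over all measured loci. All 7 loci passed the limit on the mean, but bbc3 and the second baxa locus passed it through the mutant library alone and so had to differ. The counts and the median are therefore a description and no support for a shift of the group. The authors' deposited table calls bbc3 alone of the 7 loci, where 0.185% of 20044 tested loci were called higher and 0.284% lower. Besides bbc3, the second baxa locus had an unadjusted p of at most 0.05 there, a level that 2.38% of tested loci passed on the higher side.

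**Figure D1:**
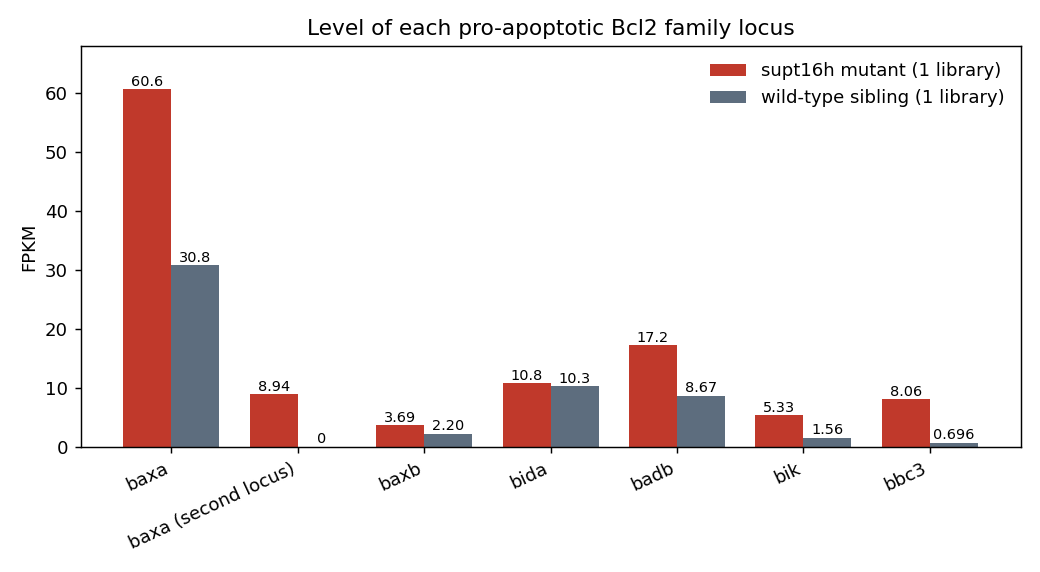
FPKM of each of the 7 loci, with the supt16h mutant library in red and the wild-type sibling library in grey, 1 library each and therefore no error bars. The mutant bar is the taller at every locus, by least at bida (10.8 and 10.3 FPKM) and by the largest ratio, among loci above 0 in both libraries, at bbc3 (8.06 and 0.696 FPKM).

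Among the BH3-only genes, bbc3 encodes Puma, which binds all of the main anti-apoptotic Bcl2 proteins. Its place in the Zv9 build, used for all coordinates here, is chromosome 15, 23098764 to 23115128. Its level was 8.06 FPKM in the mutant library and 0.696 FPKM in the sibling library. It was the fourth highest of the 6 genes in the mutant library and the lowest in the sibling library, and in both libraries it lay far below baxa. The difference was 2.42 on the log2 scale with 1 FPKM added, and 325 of the 20638 measured loci (1.57%) had a difference at least as large. In the authors' deposited table the log2 change was 3.53 and its q 0.000432. The standard error that it implied was 0.70, which gave a 95% interval of 2.16 to 4.91. All standard errors and intervals given here were derived from that table and are not listed in it. Like each q, they set 1 library against 1 and say nothing of variation between embryos. By log2 change bbc3 ranked 12th of the 37 loci called higher in the authors' deposited table, and by q it ranked 7th.

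The 3 genes nearest to bbc3 in size of change came from unlike classes. Only loci called higher were compared, and only those with 1 symbol, in lower case without colon or hyphen, that stands at 1 locus. By log2 change in the authors' deposited table, the 3 nearest of these were fos (3.46), apoa2 (3.43) and ampd1 (3.41). They encode an immediate early transcription factor, an apolipoprotein and the AMP deaminase of muscle. The next 3, beyond the 3 fixed by rule and listed after their values were seen, were gadd45aa (3.74), tfa (3.19) and cdkn1a (3.90). Of these, gadd45aa and cdkn1a are among the p53 targets given below. Likeness here rests on the change between 2 libraries and on nothing else. Levels differed widely, with apoa2 at 586 FPKM in the mutant library and 54.5 FPKM in the sibling library, and ampd1 at 4.54 FPKM in the mutant library and 0.426 FPKM in the sibling library.

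The gene bik encodes a BH3-only protein that in mammals resides largely at the endoplasmic reticulum. Its level was 5.33 FPKM in the mutant library and 1.56 FPKM in the sibling library, a 3.41-fold difference. It was not called, and its error was the largest of the members. In the authors' deposited table the log2 change was 1.77, the implied standard error 2.31, the 95% interval -2.75 to 6.29 and q = 0.999967. Of all tested loci with a finite change, 94.6% had a smaller implied standard error. The bik locus is given the same coordinates, chromosome 4 from 17904978 to 17919549, as the locus that holds cbll1 and mcat, which stood at 15.5 FPKM in the mutant library and 16.7 FPKM in the sibling library. How reads were divided between them is uncertain. The part of this overlap in the error of bik was not tested.

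The gene badb encodes a Bad protein, which in mammals is held inactive by 14-3-3 proteins after survival signals phosphorylate it. It was measured at 17.2 FPKM in the mutant library and 8.67 FPKM in the sibling library, a 1.98-fold difference. The authors' deposited table did not call it, with a log2 change of 0.99, an implied error (SE) of 0.67, an unadjusted p of 0.138 and q = 0.999967. It lies on chromosome 7 from 26293719 to 26300944, the chromosome of supt16h, at a distance of 24.5 Mb. A second gene, zgc:101765, is listed at the same coordinates with 3.57 FPKM in the mutant library and 0.984 FPKM in the sibling library. Both of these loci stood higher in the mutant, and the division of reads between them is uncertain.

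The gene bida encodes Bid, the BH3-only protein that caspase-8 cleaves to carry a death receptor signal to the mitochondrion. It lies on chromosome 18, 20347522 to 20353831. Its level hardly differed, with 10.8 FPKM in the mutant library and 10.3 FPKM in the sibling library. Its log2 change in the authors' deposited table was 0.067 with a 95% interval from -1.42 to 1.55, which leaves room for a change of 2-fold either way. It was the third highest of the members in the mutant library and the second highest in the sibling library. The sign of the bida difference turned to -0.022 when each library was divided by its FPKM sum. On chromosome 18, the next measured locus beyond bida is bcl2l13, another Bcl2 family gene, which stood at 9.98 FPKM in the mutant library and 9.65 FPKM in the sibling library.

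**Figure D2:**
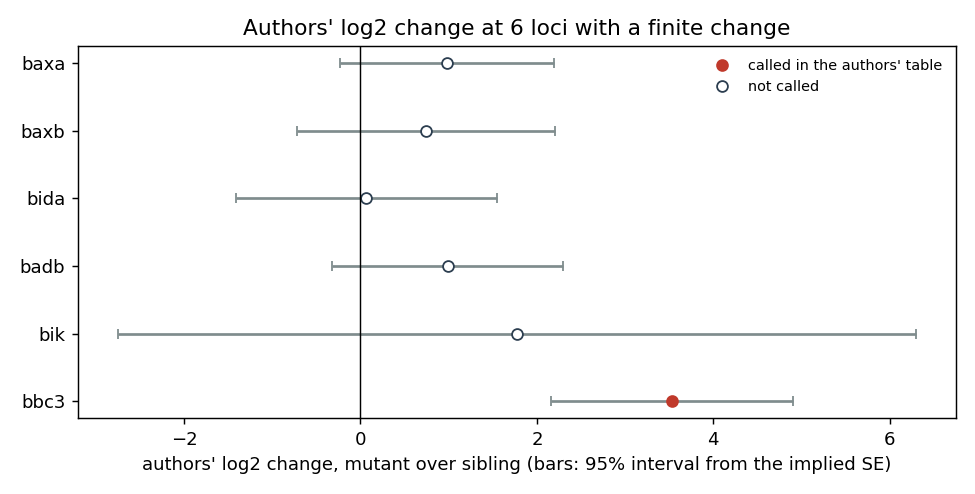
Log2 change of mutant over sibling in the authors' deposited table for the 6 loci with a finite change, with bars for the 95% interval from the implied standard error. Of these intervals that of bbc3 alone, from 2.16 to 4.91, lies wholly above 0, and that of bik is the widest.

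Of the Bax genes, baxa encodes the pore-forming Bax protein and was the most abundant member in both libraries. Its main locus, on chromosome 3 from 37771270 to 37780655, stood at 60.6 FPKM in the mutant library and 30.8 FPKM in the sibling library. This 1.97-fold difference fell just short of the 2-fold limit, at 0.95 with 1 FPKM added, and 7.29% of measured loci had a difference at least as large. In the authors' deposited table its log2 change was 0.98, with an implied error (SE) of 0.62, an unadjusted p of 0.114 and q = 0.987. Although its fold was smaller than that of bbc3, baxa gained the most FPKM.

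A second locus with the name baxa, on chromosome 3 from 37761105 to 37768855, is listed at 0 in the sibling library and stood at 8.94 FPKM in the mutant library. It was not called in the authors' deposited table, where its unadjusted p was 0.0130 and its q 0.454. No fold can be given against a value of 0. Its difference was 3.31 on the log2 scale with 1 FPKM added, and 0.916% of measured loci had a difference at least as large. Of 20044 tested loci, 316 were listed at 0 in the sibling library alone, 157 of them at this level or above in the mutant library. None of the loci at 0 in the sibling library was called. In the opposite direction, 145 tested loci were listed at 0 in the mutant library alone, 93 of them at that level or above in the sibling library. The main and second baxa loci are 2.42 kb apart. In RefSeq's annotation of the GRCz12tu assembly 1 gene is named baxa, and the gene before it has another name. Whether the second locus belongs to baxa was not tested. With the FPKM of both loci summed, baxa stood at 69.6 FPKM in the mutant library and 30.8 FPKM in the sibling library, and its difference of 1.15 on the log2 scale then exceeded the 2-fold limit.

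The paralogue baxb lies on chromosome 3 from 32211781 to 32216892. It was much less abundant than baxa, with 3.69 FPKM in the mutant library and 2.20 FPKM in the sibling library. Its log2 change in the authors' deposited table was 0.75, about as large as its implied standard error of 0.75, and q was 0.999967. A neighbouring locus named BAK1 (2 of 2), whose mammalian namesake is the other pore-forming member, was listed at 0 in both libraries.

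The nearest measured loci that lay wholly outside the member loci and were no members, 1 on each side and 12 in all, had log2 differences between -0.73 and 0.46, and 0 of them were at least 2-fold higher or lower. They leave out the loci that share a member's coordinates, of which zgc:101765 at badb had a difference of 1.20, over 2-fold, and the cbll1 and mcat locus at bik one of -0.11. Beside bbc3 these were sae1, a subunit of the SUMO-activating enzyme (65.6 FPKM in the mutant library and 83.3 FPKM in the sibling library), and rad1, a subunit of the DNA damage clamp (5.60 FPKM in the mutant library and 9.96 FPKM in the sibling library). The choice of these neighbours was made after the members' values were seen.

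**Figure D3:**
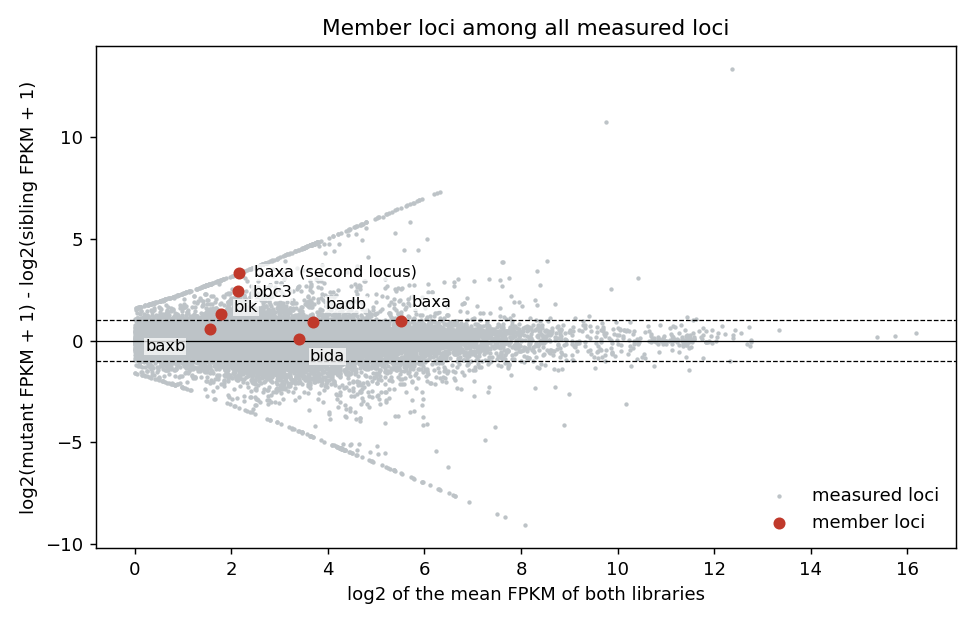
Each grey point is 1 of 20638 measured loci, placed by the log2 of its mean FPKM over both libraries and by its log2 difference with 1 FPKM added, with dashed lines at 2-fold. The 7 member loci, in red, lie at or above 0, and 3 of them lie above the upper line. The diagonal edges are loci listed at 0 in 1 library, on which the second baxa locus lies.

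The order of the member genes by level was baxa, badb, bida, bbc3, bik and baxb in the mutant library, and baxa, bida, badb, baxb, bik and bbc3 in the sibling library. Without replicates no pair of neighbours in either order can be said to differ. The share of the member sum that came from bbc3 was 7.03% in the mutant library and 1.28% in the sibling library, and that of bida was 9.40% in the mutant library and 19.0% in the sibling library. Summed over all 7 loci the members reached 115 FPKM in the mutant library and 54.2 FPKM in the sibling library, a ratio of 2.11. Of that gain of 60.4 FPKM, 64.2% came from baxa, 14.1% from badb, 12.2% from bbc3, 6.23% from bik, 2.47% from baxb and 0.804% from bida. The sum, its ratio and the baxa share include the second baxa locus, at 8.94 FPKM in the mutant library and 0 in the sibling library. Whether that locus belongs to baxa was not tested.

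The anti-apoptotic Bcl2 genes showed no such gain. Their 5 loci summed to 115 FPKM in the mutant library and 118 FPKM in the sibling library, a ratio of 0.978. The ratio of the member sum to this sum was thus 0.996 in the mutant library and 0.460 in the sibling library. That ratio leaves out the 9 other pro-apoptotic loci and rests on members chosen with earlier results of these data known. The 16 listed pro-apoptotic and BNIP3-type loci summed to 248 FPKM in the mutant library and 145 FPKM in the sibling library, a ratio of 1.71 between libraries. A locus named BAD (2 of 2), which the lists do not hold, stood at 3.76 FPKM in the mutant library and 3.55 FPKM in the sibling library. The gene bcl2l1, which encodes Bcl-xL, stood at 16.8 FPKM in the mutant library and 16.6 FPKM in the sibling library. The 2 Mcl1 genes were the most abundant anti-apoptotic genes in the mutant library. Of these, mcl1a stood at 40.0 FPKM in the mutant library and 37.6 FPKM in the sibling library, and mcl1b at 37.2 FPKM in the mutant library and 27.5 FPKM in the sibling library. Below 0 were bcl2l10 (20.0 FPKM in the mutant library and 33.4 FPKM in the sibling library) and a short locus named bcl2 (1.03 FPKM in the mutant library and 2.64 FPKM in the sibling library). Of the 5 loci, 0 differed by 2-fold on the log2 scale with 1 FPKM added, and 0 were called in the authors' deposited table. The median difference was 0.020. The BCL2 (1 of 2) and BCL2 (2 of 2) loci, which the list does not hold, stood at 2.41 and 1.85 FPKM in the mutant library, against 1.88 and 1.79 FPKM in the sibling library.

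Of the other pro-apoptotic genes, the BNIP3-type genes and bcl2l13 stood level, while pmaip1, bcl2l11 and boka differed, in both directions. Of 9 loci found, 7 were measured, 0 were at least 2-fold higher or lower with 1 FPKM added, 0 were called, and the median difference was 0.044. Their sum was nonetheless higher, at 134 FPKM in the mutant library and 91.2 FPKM in the sibling library, a ratio of 1.46. Most of that gain lay in 1 locus, pmaip1, and is no gain of the group. The largest difference of the measured loci, 0.94, was that of pmaip1, which encodes the BH3-only protein Noxa and in mammals is another p53 target. It stood at 81.9 FPKM in the mutant library and 42.2 FPKM in the sibling library, more than any member. Its locus is 236 bp long, and its log2 change in the authors' deposited table was 0.95, less than the implied standard error of 1.28. The BH3-only gene bcl2l11, which encodes Bim, went the other way, at 1.82 FPKM in the mutant library and 3.49 FPKM in the sibling library. The Bok gene boka stood at 5.62 FPKM in the mutant library and 3.99 FPKM in the sibling library. The mitophagy receptor bnip3la stood at 21.4 FPKM in the mutant library and 20.2 FPKM in the sibling library. The loci of bokb and bmf2 lay below the limit on the mean.

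**Figure D4:**
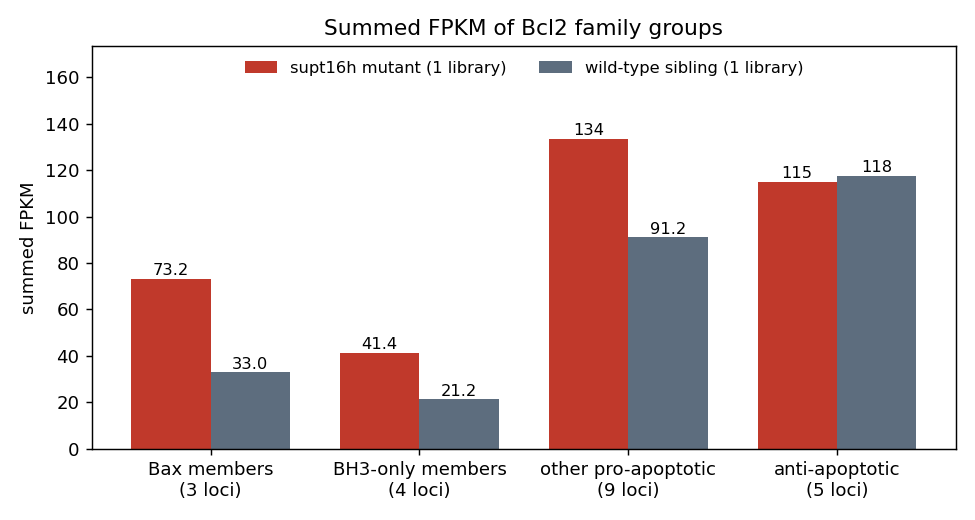
Summed FPKM of 4 groups of Bcl2 family loci, with the supt16h mutant library in red and the wild-type sibling library in grey, 1 library each. Higher in the mutant library were the Bax members with the second baxa locus included (73.2 and 33.0 FPKM) and the BH3-only members (41.4 and 21.2 FPKM). The other pro-apoptotic loci (134 and 91.2 FPKM) stood higher too, but most of that gain lay in pmaip1 alone (81.9 and 42.2 FPKM). The anti-apoptotic loci (115 and 118 FPKM) stood level.

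Downstream of the mitochondrion, 13 loci of release factors, Apaf1 and caspases had a median difference of 0.47. At least 2-fold higher with 1 FPKM added was 1 locus, 0 were lower and 0 were called. Over all measured loci, 6.75% were at least 2-fold higher and 8.36% lower. Of the 13, 10 lay above 0 and 3 below, the lowest at -0.45. The 1 was the locus that holds casp6, casp6l1 and casp6l2, at 16.6 FPKM in the mutant library and 7.49 FPKM in the sibling library. The gene pdcd8, an older name of aifm1, which encodes the apoptosis-inducing factor, stood at 71.6 FPKM in the mutant library and 38.7 FPKM in the sibling library. The nuclease gene endog stood at 17.9 FPKM in the mutant library and 10.5 FPKM in the sibling library.

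On the death receptor route, which reaches the mitochondrion through Bid, 10 measured loci had a median of 0.28, with 8 above 0 and 2 below. With 1 FPKM added, 1 was at least 2-fold higher and 0 lower, against 6.75% and 8.36% of all measured loci, and 0 were called. That 1 was casp8, the initiator caspase that cleaves Bid, at 7.81 FPKM in the mutant library and 2.05 FPKM in the sibling library (unadjusted p = 0.00291 and q = 0.220 in the authors' deposited table). The receptor gene tnfrsf1a stood at 8.61 FPKM in the mutant library and 4.17 FPKM in the sibling library, a ratio of 2.06, while its log2 difference was 0.89 and thus under the limit. The caspase-8 regulator cflar stood at 5.66 FPKM in the mutant library and 4.04 FPKM in the sibling library, and the ligand tnfsf10 at 5.56 FPKM in the mutant library and 4.17 FPKM in the sibling library.

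Among 18 measured genes of the p53 family, its regulators and its targets, 6 were at least 2-fold higher with 1 FPKM added and 0 lower. The shares over all measured loci were 6.75% and 8.36%. The median was 0.67, and 5 of the 18 lay below 0, the lowest at -0.70. Over all tested loci 0.185% were called higher. The authors' deposited table called 3 of the 18, gadd45aa, a stress gene (39.3 FPKM in the mutant library and 2.95 FPKM in the sibling library), cdkn1a, an inhibitor of cyclin-dependent kinases (27.3 FPKM in the mutant library and 1.83 FPKM in the sibling library), and phlda3, an inhibitor of Akt (27.8 FPKM in the mutant library and 5.41 FPKM in the sibling library). A locus named RPS27L stood at 134 FPKM in the mutant library and 39.7 FPKM in the sibling library and was not called. These 4 had the largest differences of the list. Their log2 changes in the authors' deposited table were 3.74 for gadd45aa, 3.90 for cdkn1a, 2.37 for phlda3 and 1.75 for RPS27L, beside 3.53 for bbc3.

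Transcription factors that act on BH3-only genes outside p53 differed in both directions. Of 9 measured loci 1 was at least 2-fold higher and 1 lower with 1 FPKM added, against 6.75% and 8.36% of all measured loci. The higher was fos, listed under its newer name fosab and named above for its likeness to bbc3, at 22.8 FPKM in the mutant library and 2.08 FPKM in the sibling library (q = 0.0302 in the authors' deposited table). The lower was atf4b2, an Atf4 gene of the integrated stress response, at 85.3 FPKM in the mutant library and 192 FPKM in the sibling library, not called. The endoplasmic reticulum stress gene ddit3 stood at 5.89 FPKM in the mutant library and 3.24 FPKM in the sibling library, and atf3 at 5.53 FPKM in the mutant library and 2.96 FPKM in the sibling library.

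**Figure D5:**
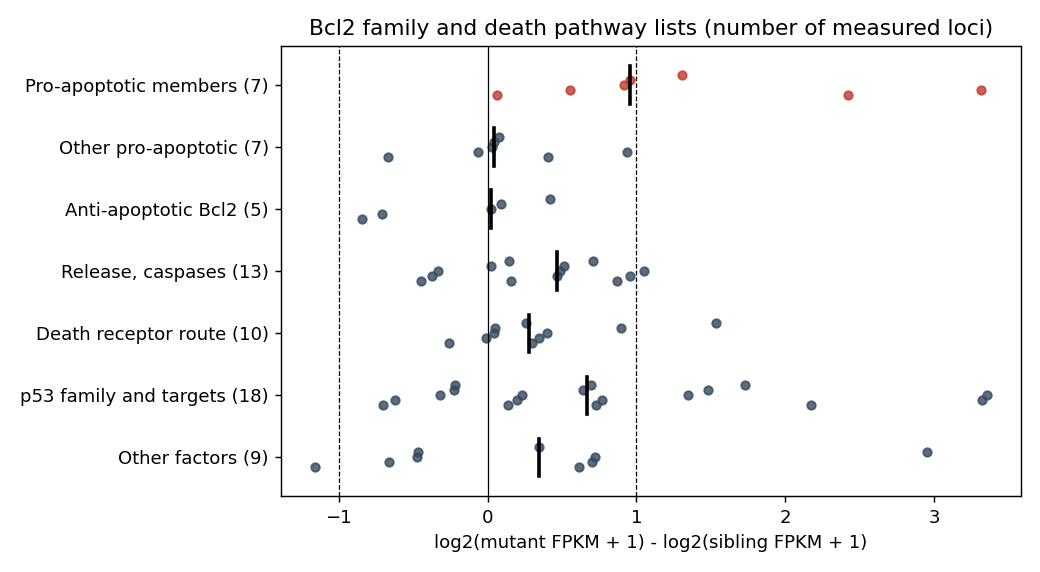
Each point is 1 measured locus of the list named at left, placed by its log2 difference with 1 FPKM added, with black bars at the medians and dashed lines at 2-fold. The members' median of 0.95 is the highest and that of the anti-apoptotic genes (0.020) the lowest, with all other lists between them. The members range from 0.061 to 3.31, and 2 of them, bbc3 and the second baxa locus, are measured through the mutant library alone.

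Macrophage and other leukocyte markers, genes of the cells that take up dying cells, summed to 18.4 FPKM over 8 loci in the mutant library and 17.7 FPKM in the sibling library, and 0 of the 5 measured ones differed by 2-fold with 1 FPKM added. Without it csf1ra did, at 0.701 FPKM in the mutant library and 1.63 FPKM in the sibling library. In the other direction went marco, below the limit on the mean, at 0.956 FPKM in the mutant library and 0.132 FPKM in the sibling library. The neuron markers elavl3 (83.4 FPKM in the mutant library and 205 FPKM in the sibling library) and neurog1 (12.6 FPKM in the mutant library and 35.2 FPKM in the sibling library) were the 2 of 12 tissue marker loci that differed by 2-fold with 1 FPKM added, both lower in the mutant library. Over all measured loci, 8.36% were at least 2-fold lower on that scale. Without the added FPKM the lens marker cryaa was over 2-fold lower too, at 2.22 FPKM in the mutant library and 4.70 FPKM in the sibling library. The part of such shifts in tissue makeup in the members' differences was not tested.

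None of the 10036 entries of the authors' deposited variant list named a member. Of the 7 member loci, 6 held no listed variant. All entries of the list are homozygous, so it does not speak to heterozygous sites or to sites without coverage. The bik locus held 1, at position 17914328 of chromosome 4 with a coverage of 2 reads and a quality score of 41.8, and it was assigned to mcat.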

How the data were processed

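Gene levels are the FPKM values that the authors deposited, 1 for each locus in each library, in a table laid out as a Cuffdiff comparison. The Zv9 build is named in the submitters' processing notes, as are Cuffdiff, Cufflinks 2.2.1, TopHat2 2.1.1 and CASAVA 1.8, without roles. Polyadenylated RNA from 1 µg of total RNA was sequenced as stranded paired reads of 50 nucleotides, per the labels' protocols. The p-value and q-value columns and the log2 change are the authors' deposited comparison of 1 library with 1 library. Their standard error was taken as the change divided by the statistic. The deposited variant table, whose header names SnpEff 3.1k, holds a quality score and a count of reads per site, and its caller and library are not given in the sources used here.

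Counts leave out loci that Cuffdiff marked as failed or too deep and those averaging under 1 FPKM, which left 20638 of 34728. No values were rescaled. The size rule was run only on sibling levels changed by a fixed factor without noise. The outcome was set in advance, so that run checks the arithmetic and not the rule's error in these data. Calculations used Python 3.11.15, pandas 2.3.3 and NumPy 2.4.6. List genes were matched by symbol, or by older names and RefSeq synonyms where no locus carried the symbol. Named were all members, the called genes and up to 4 genes with the largest difference per list, and the standard binding partners. Loci outside the lists were named after their values were seen. The result for 1 list gene that this rule selects is not reported here. The members and lists were chosen with earlier results of these data known. Alternatives varied the added FPKM, the limit on the mean, the scale, the size limit and the authors' thresholds. No sequences are shown, as no reference sequence was used here.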

Additional observations from a re-analysis of the deposited data

How the results depend on the processing

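The count of member loci at least 2-fold higher was 3. It was 0 with a mean of at least 5 FPKM, since bbc3, bik, baxb and the second baxa locus then drop out, and 5 with a limit of 1.5-fold, which 16.1% of measured loci passed. It was 2 with 5 FPKM added, where bik fell short at 0.65, and 2 with a limit of 3-fold. It was 3 with 0.1 FPKM added, with no limit on the mean, under both rescalings, and, in an alternative added after seeing the data, with both baxa loci summed. The count at least 2-fold lower was 0 under every one of these alternatives. The median difference of 0.95 ranged from 0.70 to 1.03 over them. The difference of bida reversed to -0.022 when each library was divided by its FPKM sum. That of bbc3 ranged from 1.20 to 3.36 over the added FPKM and the rescalings. The authors' deposited table called 1 member locus at its own threshold and at q of at most 0.01, and 2 had an unadjusted p of at most 0.05, a level that 2.38% of tested loci passed on the higher side. The ratio of the summed levels of the listed pro-apoptotic and BNIP3-type loci was 1.71, and 1.61 without pmaip1. Both values include the 7 member loci, chosen with earlier results of these data known, whose own ratio was 2.11. Most of the gain of the 9 other loci lay in pmaip1, so 1.61 rests mainly on the members. No paired analysis was possible because each genotype has 1 library, and none could be left out. Depths were not stated, so no counting error can be given for low loci such as bbc3 in the sibling library.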
